A study of Homo sapiens with 9 samples.

Results

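Baseline expression was described in PANC-1 cells that had received only vehicle. PANC-1 is a human cell line derived from a carcinoma of the pancreatic duct. The members are the 3 arrays titled as PANC-1 with DMSO, out of 9 arrays in the series. The other 6 arrays came from PANC-1 cells given TVB-3166, an inhibitor of fatty acid synthase, and were not used here, so no effect of treatment is given. The vehicle cells were kept for 72 h in medium with 1% charcoal-filtered serum and DMSO. The source and treatment labels of all 3 arrays put the DMSO at 0.05%, while the descriptions of replicates 2 and 3 put it at 0.5%. They also give a genotype at 1 oncogene, which was not analysed here. Nothing in the labels says whether the 3 replicates were separate cultures, so their spread may be technical. All 3 belong to 1 cell line and 1 group, so every value below is a description and no test was made.

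Each array is an Affymetrix HG-U133 Plus 2.0 chip, on which short DNA probes grouped into probe sets bind labelled RNA. The deposited value is a MAS5 signal, a brightness in arbitrary linear units scaled to the same average on every array. Of 54675 probe sets, 41097 carry 1 gene symbol, and they cover 19775 genes. The probe set with the highest mean stood for its gene, and the genes were ranked on each array, with rank 1 as the brightest. Probe sets differ in how strongly they bind, so a rank gives a place on the array and not an order of RNA amounts between genes. Below, 3 values in a row are the signals of replicates 1, 2 and 3.

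Olfactory receptor genes are silent in most cells outside the nose, and they served as the measure of background. The 95th percentile of 82 of these genes was 94.5, 139 and 79.4 on the 3 arrays. A gene above these limits on all 3 arrays is called above background. By this rule 10579 of 19775 genes, or 53.5%, were above background, and 7781 genes, or 39.3%, passed the limit on no array. The remaining 1415 genes passed on 1 or 2 arrays. A second set of silent genes, made of 35 germline, eye and sperm genes, had 1 member above background, the lens crystallin gene CRYAA at 224, 287 and 229.6. This count was 4 without replicate 2, which has the highest limits, and 3 with the 90th percentile as the limit. The counts of many lists below rest on probe sets with the suffix _s_at or _x_at, which can bind several transcripts. Without these probe sets 19 of 43 list counts fell by more than 1.5 times. Genes with no other probe set drop out under this setting, which leaves 17098 of 19775 genes. A lower count there can mean fewer genes measured and not more genes at background. The arrays correlated at 0.975 to 0.981 over log2 signals of all probe sets that are not controls. Replicate 2 had the brightest top end, with a highest signal of 35266 against 22698 and 28035, and also the highest background limit.

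**Figure D1:**
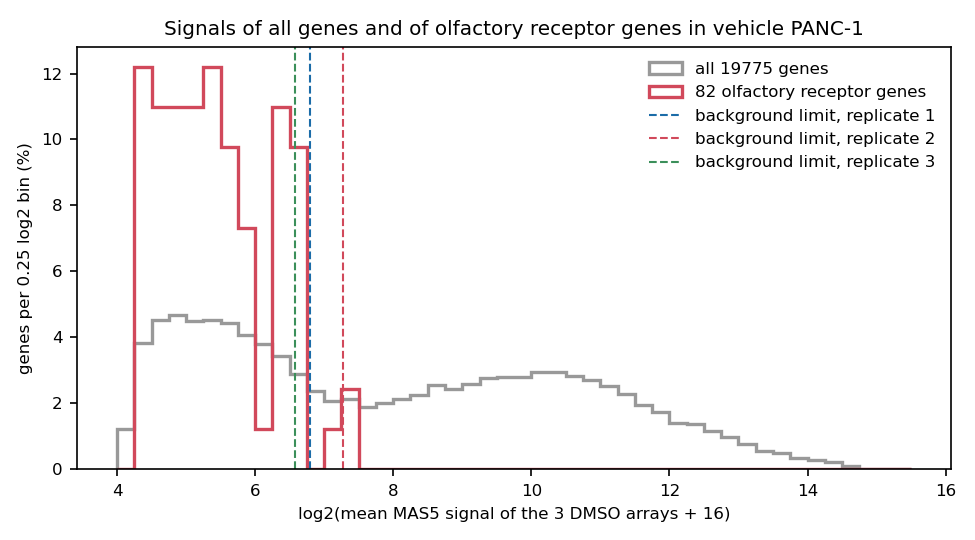
Share of genes (%) by log2 of the mean signal of the 3 DMSO arrays plus 16, in bins of 0.25, for all 19775 genes (grey) and for the 82 olfactory receptor genes (red); dashed lines mark the background limit of each array. Nearly all olfactory receptor genes lie to the left of the limits, while all genes together form a low and a high group.

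Cells of the pancreatic duct carry keratins 8, 18 and 19, the transcription factor SOX9 and a bicarbonate transport system built on the CFTR channel. Acinar cells secrete digestive enzymes, and islet cells secrete hormones. Carcinomas of the duct lose parts of the duct programme and can take on mesenchymal features, such as the intermediate filament vimentin. The genes below are grouped by such lineages and by their roles in protein synthesis, cell contact, matrix, growth signalling and lipid metabolism.

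The brightest genes were those of protein synthesis. Of the 30 genes with the highest mean signal, 17 encode ribosomal proteins, and 46 of 52 ribosomal protein genes measured lay in the brightest 197 genes. RPS23, a protein of the small subunit, was the brightest at 21944, 30673 and 26804. The others of the 30 include the elongation factor gene EEF1A1, the actin gene ACTB and 2 genes of the mitochondrial genome, COX2 and ND4. S100A6, a calcium-binding protein raised in many pancreatic carcinomas, had place 6 at 21234, 29072 and 24988. TM4SF1, a tetraspanin-like membrane protein, was at 20850.2, 26284 and 22809. The ribosomal list was chosen after its values were seen. In 24 of the 30 the chosen probe set has such a suffix, and HUWE1 and TIMM50 are among them. The HUWE1 probe set was at 18408, 25720.5 and 22159, whereas the other 4 probe sets of that gene had means of 51.4 to 3706. The other probe set of TIMM50 had a mean of 2741.

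Most genes of ribosomal proteins begin transcription at a C followed by a run of pyrimidines, a feature through which growth signals set their translation. The start windows of the 6 brightest ribosomal genes whose start could be printed here, from RefSeq (GRCh38.p14), are shown because that feature can be read in each of them. Each window runs from 10 bases before to 20 bases from the annotated start, and capitals mark a C with the pyrimidines that follow it.
RPS23 (chr5:82278335-82278364, minus strand): cggtgCTTCTCTCTTTCgctcaggcccgtg
RPS10 (chr6:34426050-34426079, minus strand): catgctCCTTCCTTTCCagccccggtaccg
RPS16 (chr19:39435930-39435959, minus strand): ccctagCTTTCCTTTTCCggttgcggcgcc
RPL37A (chr2:216498834-216498863, plus strand): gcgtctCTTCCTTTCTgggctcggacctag
RPLP1 (chr15:69452808-69452837, plus strand): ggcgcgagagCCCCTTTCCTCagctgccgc
RPS19 (chr19:41860245-41860274, plus strand): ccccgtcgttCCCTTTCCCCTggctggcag
The window searched had 15 bases, from 5 before the start to 10 from it, only on the strand that reads as the RNA. In it a C followed by 4 or more pyrimidines was found in 40 of 46 ribosomal promoters (87.0%). The same was found in 21.1% of all 27305 promoters and in 22.9% of the 8781 promoters whose genes were above background. The match is a description of letters and not of use.

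The duct list was split. Of 17 duct markers measured, 8 were above background (47.1%, against 53.5% of all genes). KRT19, the keratin of ductal cells, reached 17225, 23609 and 20362 and its partner KRT8 reached 15245, 22644 and 22089.6. KRT18 was at 18209, 25802 and 21941. The mean ranks were low (31 for KRT18, 49 for KRT19 and 58 for KRT8), and each keratin was lowest in replicate 1. KRT7, the other keratin of ducts, was above background on every array at 338, 289.8 and 327, with a mean rank of 8771. Another of its probe sets had a mean of 283.7, but the rest, at means of 4.27 and 4.5, were below the limits. CD24, a surface glycoprotein, was at 4989, 4939.8 and 4711, and the adhesion molecule EPCAM was at 1701, 1434 and 1324. The membrane mucin MUC1 was at 802, 626 and 751. Genes of secretion differed. The secreted trefoil factor gene TFF2 was above background at 405, 532 and 431, and TFF1 passed on 2 arrays at 147, 90.2 and 122. SLC4A4, a bicarbonate cotransporter, passed on 1 array at 69.1, 118 and 93.2. CFTR, the chloride and bicarbonate channel, was at 47.1, 40.4 and 17.5, the carbonic anhydrase gene CA2 at 59, 72.4 and 59.3 and the secreted phosphoprotein gene SPP1 at 42.5, 3.8 and 9.3, all below the limits on the 3 arrays. Without _s_at and _x_at probe sets the count of duct markers was 4, but CD24, SOX9, EPCAM and MUC1 have no probe set left under this setting.

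Of 19 pancreatic and epithelial transcription factors, 7 were above background (36.8%). SOX9, which maintains duct identity, was the brightest at 3179.8, 3572 and 5026, with replicate 3 above the others. FOXA2, a pioneer factor of the gut endoderm, was at 879.7, 886 and 689.6 and ELF3, an epithelial ETS factor, at 647, 794 and 909. GATA4 was at 594, 609 and 767, whereas its relative GATA6, often used to mark the classical type of pancreatic carcinoma, was at 14.1, 71.8 and 74.6 and passed on no array. PDX1, the master factor of pancreas formation, was at 59.1, 45.7 and 47.3, also below the limits. ONECUT1, KLF5 and EHF, which act in duct or gut epithelium, passed on no array either. HHEX, NR5A2 and MNX1 were above background at mean signals of 529, 233 and 229.7.

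Genes of the other pancreatic lineages were mostly at background. None of 17 acinar genes was above background on all 3 arrays, and their brightest values belonged to the colipase gene CLPS, 53.9, 177 and 65.4, and to CTRC, 76.8, 98.3 and 85.3, each above the limit on 1 array. The digestive enzymes CPA1 (mean 5.3) and PNLIP (mean 7.4) were in the lowest range of the array. Of 21 endocrine genes, 2 were above background, the neuronal enolase gene ENO2 and the granin gene CHGB at 353, 398 and 352. ENO2 was uneven between arrays at 648, 505 and 1140.4, with replicate 3 highest. The hormone genes INS, GCG and SST had mean signals of 4.43, 19.3 and 36.3.

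Genes of 2 published tumour subtypes were both present in part. Of 23 classical genes, 7 were above background (30.4%), with the disulphide isomerase gene AGR2 at 7912, 8626 and 7742 and the factor FOXQ1 at 2182, 2094 and 2572 the brightest. Of 22 basal-like and quasi-mesenchymal genes, 9 were above background (40.9%), led by the caveolin gene CAV1 at 12985, 15546 and 13651 and PHLDA1 at 10569, 11893 and 10396. The basal keratin genes KRT5 and KRT14 were not among them, with means of 34.1 and 8.77. Both shares lay under that of all genes.

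Epithelial and mesenchymal genes were above background in like shares by the brightest probe set, 14 of 25 (56.0%) and 16 of 29 (55.2%), each near the 53.5% of all genes. With the median of probe sets the shares were less alike, at 14 of 25 and 11 of 29. Without _s_at and _x_at probe sets, where some members drop out, the counts were 8 and 9. VIM, which encodes vimentin, was at 15959, 22477 and 19747, with a mean rank of 64 next to the keratins. S100A4 was at 14431, 17818 and 14952 and TGFBI, an adhesion protein induced by TGF-beta, at 8534, 10174 and 8711. HMGA2, a chromatin protein of embryonic and mesenchymal cells, was at 4962, 5108 and 5542, from 1 of its 9 probe sets, while the other 8 were not above background on all 3 arrays. Of the factors that drive the mesenchymal state, ZEB1 was at 2163, 1825 and 1943 and FOXC2 at 1221, 1202 and 1338. ZEB2, SNAI2 and TWIST1 were below the limits on every array, at means of 16.4, 15.2 and 8. Their relatives were not all so, with TWIST2 above background at 417, 373 and 483 and SNAI1 above the limit on 2 arrays at 59.9, 160.5 and 171. On the epithelial side, CDH1 was at 1647, 1383 and 1483, while the splicing regulator ESRP1 passed on 2 arrays at 148, 113 and 93.5. GRHL2 and RAB25, both tied to the epithelial state, were at means of 43.5 and 13.1. In RNA from bulk cells, a mixture of keratin-rich and vimentin-rich cells and a single population with both cannot be told apart.

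**Figure D2:**
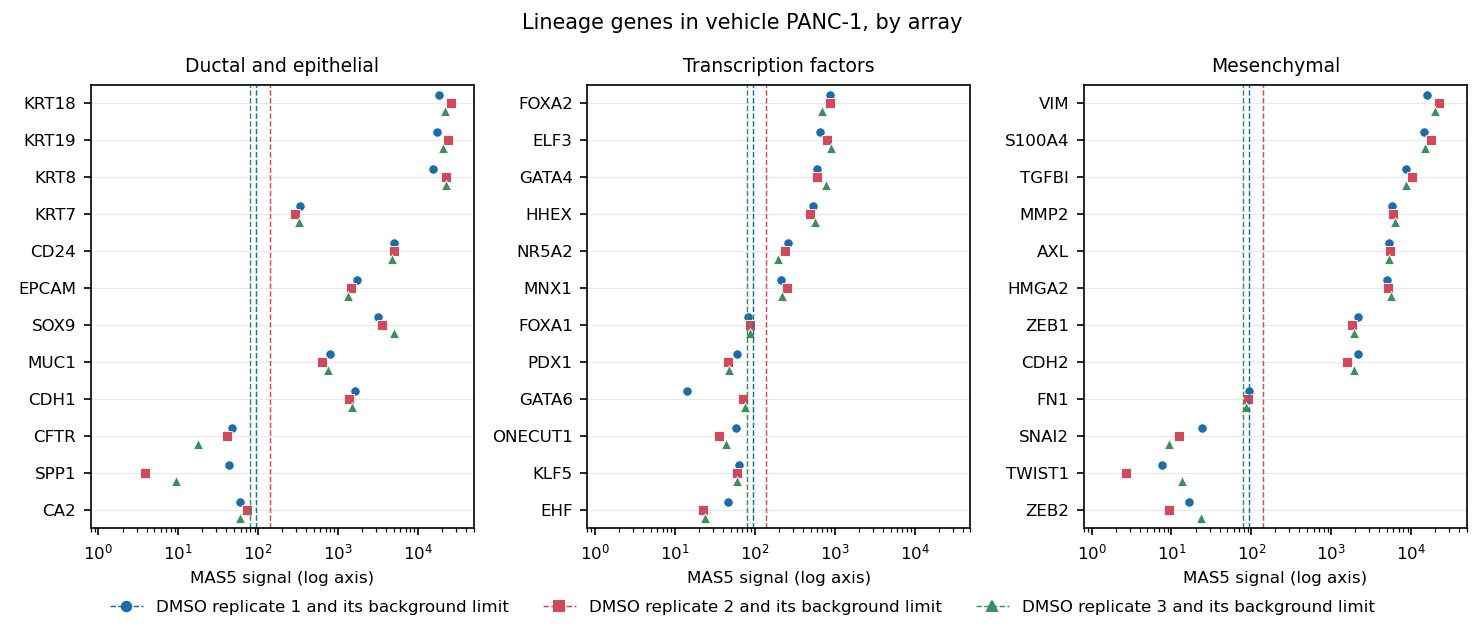
MAS5 signal (log axis) of ductal and epithelial, transcription factor and mesenchymal genes; each point is 1 DMSO array and dashed lines are the background limits. KRT8, KRT18, KRT19 and VIM lie between 15245 and 25802 on all 3 arrays, while PDX1, GATA6, SNAI2, TWIST1 and ZEB2 lie below the limits.

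Cells join through cadherins, which bind the catenins, and through tight junctions, desmosomes and gap junctions. Of 31 cadherin, catenin and nectin genes, 14 were above background (45.2%). Epithelial and neural cadherin were both present, CDH1 at 1647, 1383 and 1483, or 1504 ± 133.2 (SD, n = 3) and CDH2 at 2192, 1570.3 and 1920.3, or 1894 ± 311 (SD, n = 3). The placental cadherin CDH3 was at 1252, 1140.5 and 1273, or 1222 ± 71.1 (SD, n = 3). The 2 probe sets of CDH1 differed, the second with 129.6, 117 and 108, above the limit on 2 arrays. Of the catenins, which tie cadherins to actin, CTNNA1 was at 5803, 6981 and 6346, CTNNB1 at 6075, 5529.9 and 6413 and JUP, which also serves desmosomes, at 3080.5, 3252 and 4702. CTNNA2 passed on 1 array, and CTNNA3 and CTNND2 passed on none. VCL, which encodes the actin-binding protein vinculin, was the brightest of the list at 12439, 14403 and 14188. The neural cadherins CDH18, CDH10 and CDH22 were also above background, at means of 466, 235 and 229, whereas CDH8, CDH12 and CDH20 passed on no array.

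Of 33 tight junction genes, 18 were above background (54.5%). The scaffold gene TJP1 was at 3745, 4208 and 3659.8 and the membrane protein gene OCLN at 3791, 3482 and 4373. CXADR, a virus receptor of the junction, had a mean of 3750.5. CLDN7 was the brightest claudin at 2009.7, 1318 and 2080.5, lowest in replicate 2. CLDN4, a claudin common in pancreatic carcinoma, was at 913, 1234 and 1022, and CLDN3 and CLDN1 had means of 632 and 524. CLDN18, the claudin of stomach epithelium that is also found in pancreatic tumours, was at 65.1, 81.6 and 59.5 and passed on no array. Among 14 desmosome genes, 7 were above background (50.0%). PERP was the brightest at 15902, 19835 and 18509, followed by JUP and by the plakophilin relative PKP4 at 2374, 2135 and 2138. The others include the desmoglein gene DSG2 at 755, 578 and 609, the desmocollin gene DSC2 at 392, 342 and 279, the plakin gene DSP at 1655, 1479 and 1537 and the plakophilin gene PKP3 at 481, 525 and 623. DSG1, DSG3, DSC1 and DSC3, the partners found in stratified epithelium, passed on no array. Of 12 gap junction genes, 6 were above background (50.0%). The pannexin gene PANX1 was the brightest at 4086, 3487 and 3662, followed by the connexin gene GJC1 at 2782, 2525 and 2819. GJB2 was at 2410.4, 2286 and 2066 and GJA1, the most widespread connexin, at 474, 406 and 408.

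The matrix genes were uneven within families. Of 36 collagen genes, 12 were above background (33.3%), a count of 7 with the median of probe sets and of 5 without _s_at and _x_at probe sets. The 2 chains of type I collagen, which form one trimer in most tissues, were apart. COL1A1 was at 4616, 4076 and 4333 and COL1A2 at 72.4, 51.2 and 45.4, below the limits on every array. COL1A1 had 5 probe sets, of which 3 were above background on all 3 arrays, with means of 4342, 932 and 386, and its lowest had a mean of 41.6. All 3 probe sets of COL1A2 were below the limits. COL5A2 at 6919.8, 6821 and 5928, COL11A1 at 4999, 4928 and 5474 and COL18A1 at 4301, 4828 and 5892 were the brightest collagens. The basement membrane chains COL4A1 and COL4A2 passed on no array, at means of 63.2 and 61.9.

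Of 39 laminin and glycoprotein genes, 19 were above background (48.7%). The brightest were CCN1 at 11038, 11802 and 10428, TGFBI and CCN2 at 5609, 6424 and 5409, and both CCN genes are targets of the YAP and TAZ coactivators. Of the laminin chains, LAMC1 was at 3857, 3641 and 4667 and LAMB1 at 3115, 3235 and 2434. LAMA5 varied at 1385, 2763 and 2020.0, with replicate 2 highest. LAMB3, a chain of the laminin of stratified epithelium, was at 14, 15.8 and 6.3. Fibronectin, a main product of mesenchymal cells, was near the limits, with FN1 at 93.9, 89.5 and 86.1 and above the limit on 1 array. None of its 7 probe sets passed on all 3 arrays.

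Of 18 genes of collagen modification, 12 were above background (66.7%, against 53.5% of all genes), and 7 without _s_at and _x_at probe sets. The prolyl hydroxylase subunit P4HB was at 12140.5, 15592 and 14514 and the lysyl hydroxylase gene PLOD2 at 8036, 8547 and 8413, and P4HA1 had a mean of 5569. The lysyl oxidase homologue LOXL2 was at 2988, 3140.2 and 3474, whereas LOX itself passed on no array. Of 37 proteases and inhibitors, 16 were above background (43.2%). MMP2, a gelatinase, was the brightest metalloprotease at 5685, 5907 and 6193, from 1 of its 3 probe sets, while the other 2 were below the limits on every array. Its membrane-bound activator MMP14 was at 329, 380.3 and 353. The lysosomal protease genes CTSD and CTSB had means of 5978 and 5673. The urokinase gene PLAU was at 4384, 5161 and 3839 and its receptor gene PLAUR, in the same list, at 152, 139 and 165. MMP1, MMP3, MMP10 and MMP13 passed on no array. Of 25 integrins, 12 were above background (48.0%), a count of 8 with the median of probe sets. The brightest were ITGB1, the common beta chain, at 14258, 19811 and 16697 and ITGAV at 9163, 9551 and 9381, with ITGB5 at a mean of 5625. The mean of ITGB1 was 38.3 with the median of its probe sets and 15765 without _s_at and _x_at probe sets. ITGA6, which pairs with ITGB1 to bind laminin, was at 3124, 2256 and 2806. ITGA2, which pairs with ITGB1 to bind collagen, was at 1942, 1546 and 1398.

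**Figure D3:**
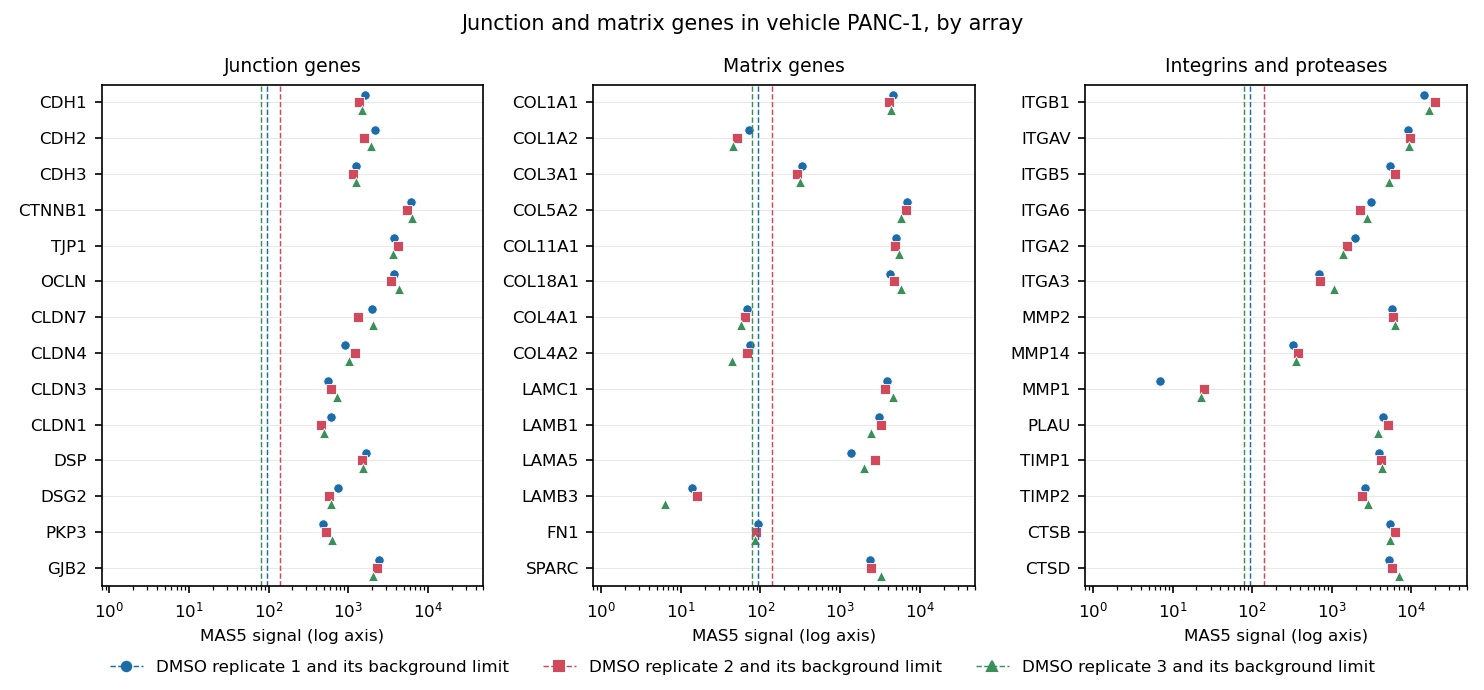
MAS5 signal (log axis) of junction genes, matrix genes, and integrins and proteases; each point is 1 DMSO array and dashed lines are the background limits. COL1A1 lies between 4076 and 4616 on the 3 arrays and COL1A2 below the limits, and CDH1 and CDH2 lie at like places on the axis.

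Of 25 genes of the RAS, RAF and MAP kinase pathway, which carries growth signals from receptors to the nucleus, 22 were above background (88.0%, against 53.5% of all genes). The adaptor gene SHC1 was at 13299, 16182 and 15095. Its partner GRB2 was at 2845, 3114 and 3617, and the phosphatase gene PTPN11 was at 6479.7, 6656 and 5946. MAP2K1 was even at 3632, 3543 and 3911, while MAP2K2 was at 2050.0, 1950.5 and 3473, highest in replicate 3. Feedback inhibitors were at middle levels, with SPRY2 at 883, 869 and 882 and DUSP6 at 767, 526 and 550.5. DUSP4, another phosphatase of this pathway, was at 18.1, 1.8 and 10.1 and passed on no array. NF1 did not pass either, at 52, 25.3 and 45.7, from its single probe set.

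Of 34 receptor tyrosine kinases, 16 were above background (47.1%), and 9 without _s_at and _x_at probe sets. AXL was the brightest at 5225, 5371 and 5330.2, or 5309 ± 75.5 (SD, n = 3), followed by MET at 3886, 3530.3 and 2693, or 3369.8 ± 613 (SD, n = 3), EGFR at 3126, 3353 and 3361, or 3279.7 ± 134 (SD, n = 3) and RET at 3138, 3119 and 3042, or 3099.6 ± 50.6 (SD, n = 3). The values of MET, EGFR and RET overlapped between arrays. Probe sets also differ in binding, so the signals of these receptors, AXL included, do not order their RNA. With the median of probe sets the means of AXL, MET and EGFR were 2848, 885 and 251. ERBB2 was at 891, 922 and 1205, and ERBB3 was close to the limits at 92, 144 and 84.1. FGFR1, FGFR2 and FGFR3 were above background and the PDGF receptor genes PDGFRA and PDGFRB were not.

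Of 39 other oncogenes, 30 were above background (76.9%). AKT2, a kinase gene known for copy gain in pancreatic carcinoma, was the brightest at 11256, 12918 and 13617, and 6 of its 7 probe sets were above background. AKT1 was at 1451, 1346 and 1764. The coactivator gene WWTR1, which encodes TAZ, was at 10620.1, 11761 and 9547, and YAP1 was at 6755, 6611 and 5685. JUN was at 7441, 7129.7 and 7384, and its partner FOS was at 2.7, 5.9 and 3.8 in the same RNA, from 1 probe set. The mean of JUN was 1017 with the median of its probe sets and 316 without _s_at and _x_at probe sets. MYC was at 2264, 2450.0 and 2435, while MYCN, MYB and TERT passed on no array. Of the G1 kinase genes, CDK4 was at 5860.2, 6389 and 5746 and CDK6 at 1803, 1833 and 2334. Their cyclin gene CCND1 was at 1314, 1315 and 1468.

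Of 41 tumour suppressors, 36 were above background (87.8%), a count of 28 with the median of probe sets. Without _s_at and _x_at probe sets, where some members drop out, the count was 21. SMAD4, which carries TGF-beta signals and is often lost in pancreatic carcinoma, was at 1820.3, 1480.3 and 1959.7, and SMAD3 was at 4728, 4923 and 6034. The mean signal of SMAD4 was 88.4 with the median of its probe sets and 348 without _s_at and _x_at probe sets. SMAD2, another SMAD, and ARID1A, a chromatin remodelling subunit, had means of 3208 and 4231. RB1 was at 1321, 1173 and 969.7 and the cell cycle inhibitor gene CDKN1A at 1541, 1475 and 1577. CDKN2B, which encodes an inhibitor of CDK4 and CDK6, was at 9.7, 6.9 and 5.3, with both probe sets below the limits.

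The genes around CDKN2A on chromosome 9 are of interest because this region is often deleted in pancreatic carcinoma. CDKN2A itself was at 114, 157 and 95.6, just above the limits, from 1 x_at probe set. Of its other 2 probe sets, 1 gave 14.7, 5.8 and 3.9 and the last gave 8.2, 11.6 and 10.4. At the 99th percentile of the olfactory receptor genes, with germline genes as background, with the median of probe sets or without _s_at and _x_at probe sets, CDKN2A was no longer above background. MTAP, an enzyme of methionine salvage, was at 664, 487 and 693 from 1 of 6 probe sets, and the other 5 had means of 2.67 to 78.7, below the limits. Between CDKN2A and TUSC1, the genes CDKN2B-AS1, CDKN2B, DMRTA1 and ELAVL2 were all below the limits, at means of 2.07 to 39.5. TUSC1 was at 1094, 835 and 1039, and on the far side KLHL9 was at 1304, 1194 and 1299 and the noncoding gene MIR31HG at 356, 375 and 359. The interferon genes IFNA1, IFNA2, IFNA8 and IFNE, silent in most resting cells, were at means of 1.87 to 23.5. In all, 7 of the 17 genes from 8 places before to 8 places after CDKN2A were above background, against 53.5% of all genes. CDKN2A itself is among the 7. With so few genes, the count is not a result about the region. RNA signals do not show copy number, which was not measured here.

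**Figure D4:**
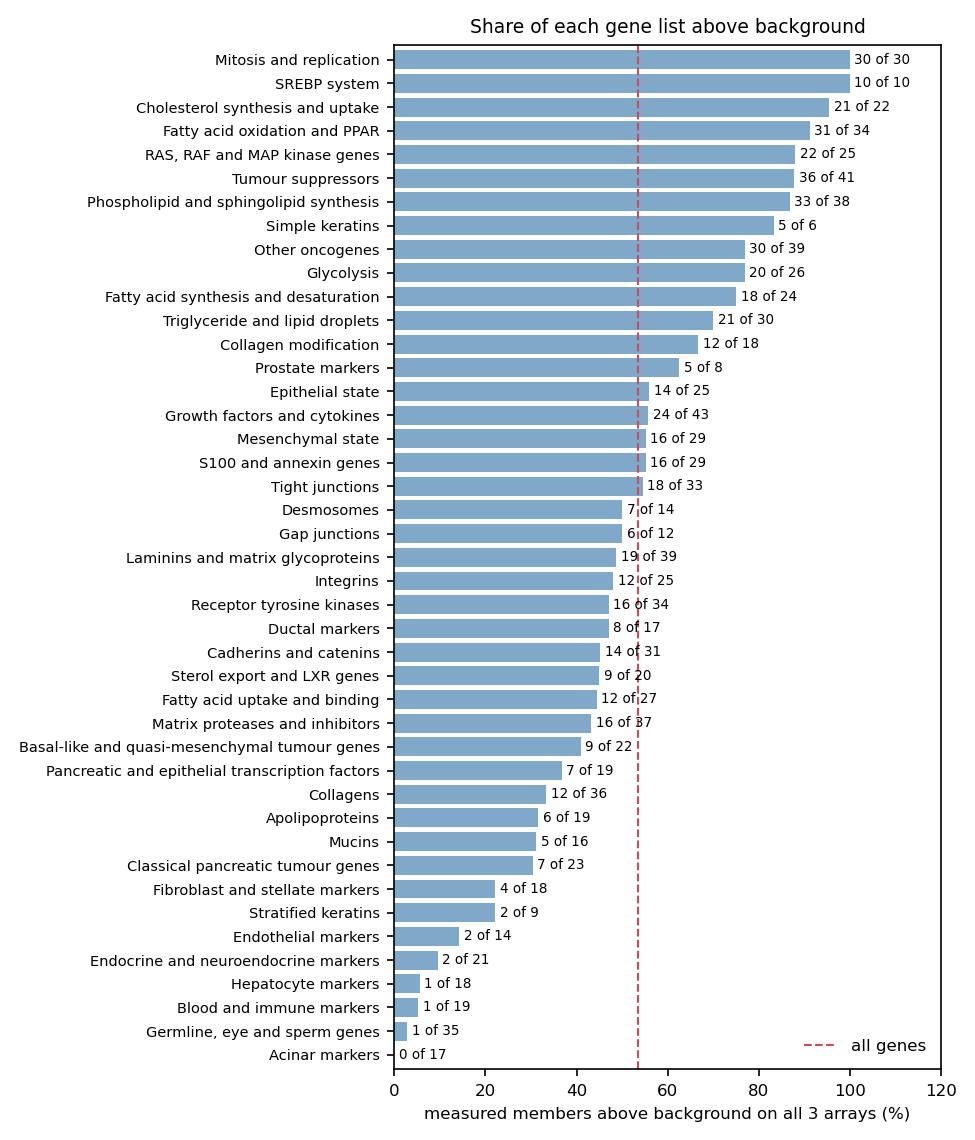
Share (%) of measured members of each of 43 gene lists above background on all 3 DMSO arrays, with counts at the bar ends; the dashed line is the 53.5% of all genes. Cell division, sterol and fatty acid oxidation genes stand at the top, and acinar, germline, blood and liver genes at the bottom.

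Fatty acids are built from acetyl-CoA by ACLY, ACACA and FASN, then lengthened by ELOVL enzymes and desaturated by SCD and FADS enzymes. Of 24 genes of this list, 18 were above background (75.0%). SCD, which makes oleate, was the brightest at 12360.1, 15455 and 16103, and the citrate lyase gene ACLY was at 11631, 12482 and 12867. FASN was at 3152, 3208 and 5638, with replicate 3 far above the others. Its other probe set was at 15.3, 69.8 and 8.6, below the limits on every array, so it cannot show whether FASN differed between arrays. ACACA was at 2559, 2018 and 3241. The elongases were unequal, with ELOVL5, which acts on polyunsaturated chains, at 11538, 13823 and 11452. ELOVL6, the elongase of palmitate, was at 75.1, 95.1 and 74.6 and passed on no array with any of its 3 probe sets. The desaturase gene FADS2 was at 1611, 1715 and 2837.

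Cholesterol genes were above background in 21 of 22 cases (95.5%), the exception being NPC1L1, the intestinal uptake protein. The median of their mean ranks was 1841, against 9911 for all genes. SQLE, which forms squalene epoxide, was at 6049.8, 6337 and 6851 and MSMO1, a sterol demethylase, at 5858, 5838 and 5886. HMGCS1, at the start of the pathway, was at 1998, 2198 and 1885 and MVD, which makes isopentenyl pyrophosphate, with the highest rank number of the 21, at 200.0, 263 and 301. The lipoprotein receptor SCARB1 was at 5776, 6816 and 8169. All 10 genes of the SREBP system, which senses sterols and drives both pathways, were above background. INSIG1, the sterol sensor that holds SREBP in the endoplasmic reticulum, was at 3828, 4382 and 3662, and the factor gene SREBF1 was at 1206, 1296 and 2024. SREBF2 was at 526, 604 and 615. ERLIN1 and RNF139, both of the endoplasmic reticulum, followed INSIG1 at means of 3912 and 2192.

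Other lipid functions differed by class. Of 34 genes of fatty acid oxidation, 31 were above background (91.2%), led by the mitochondrial enzyme genes ECHS1, HADHB and ETFA at means of 10378, 8402 and 6853. The gatekeeper CPT1A was at 3162, 3133 and 3297 and PPARG, the nuclear receptor of fat cells, at 2279, 2699 and 2379.7. With the median of its probe sets the mean of CPT1A was 445, and without _s_at and _x_at probe sets it was 3197. Of 38 genes of phospholipid and sphingolipid synthesis, 33 were above background (86.8%), with the ceramide synthase gene CERS2 at 6092, 6433 and 7269 the brightest, followed by SPTLC1 and CDIPT at means of 5916 and 5699. Of 30 triglyceride and droplet genes, 21 were above background (70.0%). HILPDA, a droplet protein induced by hypoxia, was at 4884, 4857 and 5444 and PLIN2, the general droplet coat, at 589, 685 and 594, while the fat cell coat PLIN1 was at 7.2, 6 and 11.5. PLIN3 and AGPAT2 had means of 2922 and 2589.8. Of 27 uptake and binding genes, 12 were above background (44.4%), led by the acyl-CoA binding protein gene DBI and the caveolin genes CAV1 and CAV2 at means of 15061, 14060.3 and 9741. FABP5 was at 3012, 2791 and 2614, but FABP1, FABP2, FABP3, FABP4, FABP6 and FABP7 passed on no array. The fatty acid translocase gene CD36 was at 16.1, 52.6 and 15.1 and the lipase gene LPL at 12.4, 33.6 and 37.4, both below the limits. APOE at 4446, 5832 and 6040.3 and CLU at 6019.7, 6394 and 6858 were the brightest of 6 apolipoproteins above background out of 19, followed by APOC1 at a mean of 723.

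**Figure D5:**
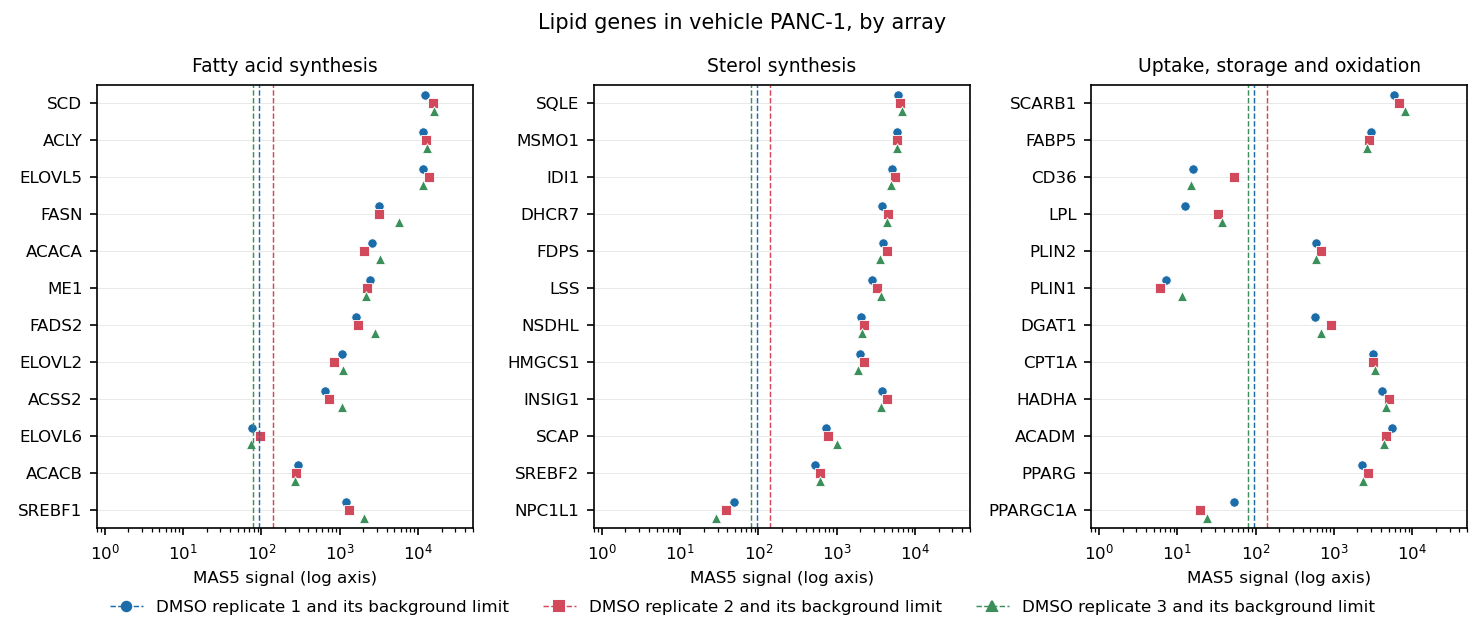
MAS5 signal (log axis) of fatty acid synthesis genes, sterol synthesis genes, and genes of uptake, storage and oxidation; each point is 1 DMSO array and dashed lines are the background limits. FASN, FADS2, SREBF1 and ACSS2 are highest in replicate 3, whereas the sterol genes lie close together on the 3 arrays, and ELOVL6, CD36, LPL and PLIN1 lie below the limits.

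Proliferation genes were above background without exception, 30 of 30, with TYMS at 9053, 9855 and 7761, RRM2 and PCNA at means of 6314 and 5032, and the cyclin gene CCNB1 at 5164, 4748 and 4161. MKI67, the proliferation marker Ki-67, was at 1206, 1168 and 1245 and E2F1 at 239.7, 273 and 295. Promoters of mitotic and sterol genes are known for the CCAAT box, bound by NF-Y. CCAAT, searched on both strands in the 250 bases before the start, was found in 20 of 24 promoters of the proliferation list (83.3%) and in 15 of 19 of the cholesterol list (78.9%). It was found in 33.0% of all 27305 promoters and in 35.8% of those whose genes were above background. The GC box GGGCGG, on both strands, was found in 16 of 19 cholesterol promoters (84.2%), in 69.1% of those above background and in 42.3% of all. TATAAA, on both strands, was found in 7 of 14 acinar promoters (50.0%), a list with no member above background, in 4.78% of those above background and in 11.1% of all. The promoters of CCNB2 and NSDHL are shown, since no promoter of either list has more CCAAT matches than these, although TOP2A equals CCNB2 and MVK equals NSDHL. They are on GRCh38.p14 from RefSeq, with CCAAT and its reverse complement ATTGG in capitals.
CCNB2 (chr15:59104896-59105145, plus strand): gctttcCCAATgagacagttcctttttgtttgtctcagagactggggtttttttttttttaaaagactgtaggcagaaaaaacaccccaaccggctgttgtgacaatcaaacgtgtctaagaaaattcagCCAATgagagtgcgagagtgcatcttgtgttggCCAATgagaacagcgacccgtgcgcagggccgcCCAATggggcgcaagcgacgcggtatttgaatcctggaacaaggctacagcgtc
NSDHL (chrX:152830813-152831062, plus strand): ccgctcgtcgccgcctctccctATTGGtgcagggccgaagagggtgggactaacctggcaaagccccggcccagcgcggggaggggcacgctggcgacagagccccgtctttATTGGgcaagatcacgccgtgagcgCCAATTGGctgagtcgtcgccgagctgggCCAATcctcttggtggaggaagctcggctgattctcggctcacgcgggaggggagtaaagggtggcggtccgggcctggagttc
CCNB2, which encodes the mitotic cyclin B2, has 4 matches and a signal of 3111, 3194 and 2633. NSDHL, a sterol dehydrogenase of cholesterol synthesis, has 5 matches, of which 2 overlap on opposite strands, and a signal of 2045, 2225 and 2081. A match describes letters and not binding.

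Of 26 glycolysis genes, 20 were above background (76.9%), and the lactate dehydrogenase gene LDHA at 17178, 23994 and 20566 and the enolase gene ENO1 at 17409.7, 23078 and 19262 had mean ranks of 48 and 53, with GAPDH next at 85. Of the glucose transporters, SLC2A1 was at 656, 669.8 and 544, and SLC2A2, SLC2A3 and SLC2A4 passed on no array. Secreted factors were led by DKK1, an inhibitor of WNT signalling, at 14759, 19212 and 17574, with VEGFA at 5175, 5418 and 5889, GDF15 at 4913, 5681 and 5516 and the chemokine gene CCL2 at 3100.3, 3371 and 3009.7. In this list 24 of 43 genes were above background (55.8%). IL6 and CXCL8, 2 cytokines common in pancreatic tumours, passed on no array, at means of 22 and 52.4. Of 16 genes of the mucin list, 5 were above background (31.2%). MUC1 was the brightest, and MCAM, an adhesion molecule of the immunoglobulin family that the list also holds, was at 546, 529 and 779. The others were MUC16 at 162, 167 and 248, the gel-forming MUC5AC at 113, 214 and 195 and MUC3A at 116, 211 and 132. This count was 2 at the 99th percentile, 3 with the median of probe sets and 2 without _s_at and _x_at probe sets. MUC4 was below the limits at 64.7, 87 and 73.3.

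Markers of blood, endothelial, fibroblast and liver cells, which a pure culture should lack, were above background in few cases. The shares were 5.26%, 14.3%, 22.2% and 5.56%, against 53.5% of all genes. Of 19 blood markers, 1 was above background, CD79A at 139, 188 and 224, through 1 of its 2 probe sets, and the pan-leukocyte gene PTPRC was at 22.9, 16.7 and 3. Another gene of this list passed on all 3 arrays through a probe set that was not its brightest, as did 8 genes in all. The count of blood markers was 3 without replicate 2, 2 without replicate 3 and 0 at the 99th percentile. Of 14 endothelial markers, 2 were above background, EGFL7 at 469, 495 and 582 and, through 1 of 5 probe sets, PECAM1 at 177, 224 and 172, while VWF was at 15, 18.8 and 13.3. Of 18 fibroblast and stellate markers, 4 were above background, namely COL1A1, whose values are given above, and COL3A1, THY1 and ACTA2 at means of 313, 283 and 222, while LUM, PDGFRA, PDGFRB and FAP passed on no array. Of 18 liver markers, CPS1 alone was above background, at 186, 202 and 167, and the count was 3 without replicate 2. Prostate markers were included because the series text also names a prostate line, and 5 of 8 were above background (62.5%, against 53.5% of all genes). TMPRSS2 was at 1146, 1195 and 1173 and HOXB13 at 215, 204 and 253, and KLK3 was at 525, 465 and 424 through 1 of 3 probe sets, with STEAP2 at 294, 255 and 294 and SLC45A3 at 161, 159.7 and 132, whereas KLK2, FOLH1 and ACP3 passed on no array. With the median of probe sets 3 of the 8 were above background.

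The 3 arrays were close for most genes. The range between the highest and the lowest array, in log2(signal + 16), had a median of 0.28 over the 10579 genes above background, and 93 of them (0.879%) had a range of 1, or 2-fold, or more. HINT3 had the widest range at 1362, 1048 and 234, lowest in replicate 3. SRC, a tyrosine kinase gene, was at 110.2, 190.0 and 463, and ZYX, a protein of focal adhesions, at 471, 658 and 1383, both highest in replicate 3. For SRC this is 1 of 7 probe sets, the only one above background on all 3 arrays. The next brightest was at 122.2, 64.2 and 112.7, not highest in replicate 3. Of the 93 genes, 61 were highest in replicate 3, while 32.6% of all genes above background were. The number of genes with such a range was 57 without replicate 1, 45 without replicate 2 and 14 without replicate 3. Promoter GC went with small shifts between arrays. Against the mean of the other 2 arrays, the median log2 difference of replicate 3 was -0.06 in the fifth of genes with the least promoter GC and 0.034 in the fifth with the most. Replicate 1 ran the other way, from 0.041 to -0.033. The part of this in the values of FASN, FADS2 and SREBF1 was not tested. Ribosomal genes were highest in another array. Of 51 above background, 49 were highest in replicate 2, against 3561 of all 10579 genes above background. The whole bright end was raised in replicate 2, whose brightest 197 genes had a median signal of 19645 against 14956 and 17044. The 9 probe sets of added control RNA had mean log2 signals of 11.27, 11.93 and 11.41 on the 3 arrays. The part of this in the ribosomal values was not tested.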

How the data were processed

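The authors hybridised RNA of 9 PANC-1 samples to Affymetrix HG-U133 Plus 2.0 arrays, and the 3 DMSO arrays were used here. The authors deposited 1 intensity per probe set, named MAS5 signal in the submitters' processing notes, in linear units and with a trimmed mean of 500.1 on each of the 3 arrays. The tool is listed with its version not given in the sources used here. No further normalization was applied.

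Probe sets were named from GEO's platform annotation, with symbols updated through Entrez IDs to RefSeq (GRCh38.p14), which held 41043 of the 41097 probe sets with 1 symbol. Another 1801 had several symbols and 11777 were not listed. These and the 62 control probe sets, some of which have a symbol, were left out of the gene values. A gene took the values of its brightest probe set, by the mean of the 3 arrays. Background was the 95th percentile of 82 olfactory receptor genes on each array, and the spread was the range of log2(signal + 16). Python 3, pandas and numpy were used. The code was run on simulated data in which present and absent genes lay far apart in signal. That run checks the code alone and cannot show how often calls near the limits are right.

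Members and gene lists were chosen with earlier results of these data known. The rule for named genes was up to the first 6 members of each list in written order and the 3 brightest by mean rank. It was followed in part: some of these genes are covered by the counts alone, and other genes named were chosen after their values were seen. Alternatives covered the background percentile and genes, the probe set rule, quantile normalization, the added constant, the filter and leaving out each array. The number of arrays, 3, limits the precision. Promoter entries were found for 8781 of the 10579 genes above background.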

Additional observations from a re-analysis of the deposited data

How the results depend on the processing

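No paired analysis was possible because the values come from 1 group and from no test. The number of genes above background was 9940 at the 99th and 11114 at the 90th percentile, 10472 with germline, eye and sperm genes as background, 9581 with the median of probe sets and 7851 without _s_at and _x_at probe sets. The last setting leaves 17098 genes, so that 45.9% of them were above background. When 1 array was left out, 10610 to 11181 genes were above background. The 520 list genes above background became 523 to 554 without 1 array and 350 to 545 under the other settings. Of the 30 brightest genes, 29 remained among the 30 brightest after quantile normalization, 30 with the probe set chosen over all 9 arrays and 28 to 29 without 1 array, but 17 with the median of probe sets and 8 without _s_at and _x_at probe sets, where most chosen probe sets are dropped. The 7 genes above background around CDKN2A, itself included, became 4 with the median of probe sets and 4 without _s_at and _x_at probe sets. They were 6 at the 99th and 7 at the 90th percentile, 6 with germline genes as background and 7 to 7 without 1 array. For this count the settings were added after seeing the data. The 93 genes with a range of 2-fold or more became 52 with 64 added, 126 with 1 added, 84 after quantile normalization, 2606 with no filter on background, and 14 to 57 without 1 array, the lowest without replicate 3. Of genes with several probe sets, 4427 had some above and some not above background, and 2867 without _s_at and _x_at probe sets, where fewer probe sets were compared. Of 43 list counts, 19 moved by more than 1.5 times without _s_at and _x_at probe sets, 6 with the median of probe sets, 4 at the 90th and 2 at the 99th percentile, 1 with germline genes as background, 3 without replicate 2 and 1 without replicate 3. Of 69 genes followed, none moved its mean signal by more than its SD after quantile normalization, and 51 did with the median of probe sets.

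A MAS5 signal says nothing of protein, and values below the limits have no order. Many genes rest on 1 probe set, and 61.9% of the genes above background with several had at least 1 that was not.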

Other observations

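The HOX genes, which give cells their position along the body axis, differed between the HOXB, HOXC and HOXD clusters. The clusters were examined after the values were seen. Of 10 HOXB genes measured, 9 were above background, from HOXB3 at 6336, 6184 and 5839.9 and HOXB7 at 4783, 4577 and 4792 to HOXB13 at 215, 204 and 253, and HOXB1, at the end of the cluster expressed first in the embryo, was at 43.2, 22.1 and 16.4. Of 9 HOXC genes, 8 were above background (88.9%), with HOXC6 at 6319, 6197 and 6094 and HOXC10 at 3140.4, 2917 and 4699.9. HOXC12 was at 46.4, 47.6 and 39.3 although its neighbours HOXC11 at 534, 540.4 and 953 and HOXC13 at 1977, 1923 and 2322 were above background. None of 8 HOXD genes was above background on all 3 arrays, and 5 passed on none, as did 39.3% of all genes. HOXA2, the only HOXA gene among those with 1 symbol here, was at 139.6, 132 and 160.1 and passed on 2 arrays. HOXC4 had a wide range at 429, 268 and 901.

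The S100 and annexin genes, calcium-binding proteins, had 16 of 29 members above background (55.2%). S100A10 at 17639, 22887 and 19954 and ANXA2 at 15038, 22237 and 18376, which form one complex at the plasma membrane, had mean ranks of 49 and 81. The inflammatory pair S100A8 and S100A9 passed on no array. Of 26 MAGE, GAGE, PAGE, XAGE, CTAG and SSX genes, which many carcinomas reactivate from the germline, none passed on any array. Among all genes, 39.3% passed on no array. This list was also chosen after the values were seen. Of 20 genes of sterol export and of the LXR receptors, 9 were above background (45.0%), with ABCA1 at 178, 202 and 216 and ABCG1 below the limits at 88.1, 87.6 and 61.9. Among keratins, 5 of 6 simple and 2 of 9 stratified types were above background, the latter being KRT10 at 6111, 7347 and 7702 and KRT15 at 1379, 1642 and 1493.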
